A study of Mus musculus with 29 samples.

Results

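The genes described here are the 7 that build and load MHC class II, the surface complex that shows peptides to CD4+ T cells: Cd74, H2-Aa, H2-Ab1, H2-Eb1, H2-DMa, H2-DMb1 and Ciita. They were chosen by symbol, all 7 were found among the 55401 gene rows of the count tables, and each symbol had 1 row. Bulk RNA-seq was made from about 1000 flow-sorted mesenchymal cells of the common bile duct of single mice, giving 29 libraries in 9 groups. Mice of the Gli1 line carried Gli1:CreERT2 and Rosa26:lox-STOP-lox-tdTomato, and were taken 4 days after bile duct ligation (4d BDL, n = 3) or uninjured (n = 3). Mice of the Pdgfra line carried Pdgfra:CreERT2 with the same reporter, and were SmoFF (n = 4), SmoM2 (n = 3), Ctnnb1FF (n = 3), Gli2FF (n = 2), Gli3FF (n = 2), Gli2FFGli3FF (n = 4) or wild type at these loci (n = 5). Every mouse, controls included, thus carried a Cre allele and the reporter, and recombination is limited to cells in which the Gli1 or Pdgfra promoter has driven the tamoxifen-inducible Cre; the gate of the sort is not given in the sources used here. Smo transduces Hedgehog signals, SmoM2 is a constitutively active form of it, Gli2 and Gli3 are transcription factors of that pathway, and Ctnnb1 encodes beta-catenin. The labels do not spell out the FF alleles, and give no strain, age or sex, and no sham-operated group.

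Class II molecules are pairs of an alpha and a beta chain. H2-Aa and H2-Ab1 encode the pair known as I-A, and H2-Eb1 the beta chain of I-E, whose alpha chain is encoded by H2-Ea. Cd74, the invariant chain, escorts the pairs to endosomes and fills their groove, and the H2-DM pair (H2-DMa and H2-DMb1) later swaps its remnant for antigen peptides. Ciita is the coactivator that switches the whole set on: it binds no DNA itself but docks on factors sitting on the X and Y boxes upstream of class II genes, and its own transcription is induced by interferon-gamma. Dendritic cells, macrophages and B cells are the main expressing cells, while fibroblasts and other stromal cells carry low levels that interferon-gamma raises. Ptprc, which encodes the leukocyte antigen CD45, was used as the measure of immune cells carried through the sort.

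Of the 7 genes, 5 lie within the MHC on chromosome 17 (mm10, GENCODE positions): H2-DMa at chr17:34119541-34139101 on the plus strand, H2-DMb1 at chr17:34153072-34160230 (plus), H2-Ab1 at chr17:34257689-34269419 (plus), H2-Aa at chr17:34282744-34287823 (minus) and H2-Eb1 at chr17:34305867-34316674 (plus). Cd74 lies outside the MHC and Ciita at chr16:10480059-10528418 (plus). Proximal promoter sequences from RefSeq (GRCm38.p6) were matched for 4 of the 7 genes, H2-Aa, H2-Eb1, H2-DMa and H2-DMb1; Cd74, H2-Ab1 and Ciita were not matched. The X and Y boxes are printed here for an I-A and an I-E chain because they are the element through which Ciita acts on the whole set. The capitals mark matches to the letters CTNGNAAC (X) and TGATTGG (Y), and each stretch of 130 bases ends at the base before the annotated start.
H2-Aa, chr17:34287824-34287953, minus strand: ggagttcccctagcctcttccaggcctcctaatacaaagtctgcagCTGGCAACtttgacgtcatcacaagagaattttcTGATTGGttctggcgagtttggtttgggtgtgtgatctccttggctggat
H2-Eb1, chr17:34305737-34305866, plus strand: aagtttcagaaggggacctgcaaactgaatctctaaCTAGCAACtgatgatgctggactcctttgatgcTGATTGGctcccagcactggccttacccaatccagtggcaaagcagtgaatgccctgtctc
In H2-Aa the X letters began 84 bases and the Y letters 50 bases before the start, with 26 bases between them; in H2-Eb1 these distances were 94, 61 and 25 bases. Windows of 250 bases upstream of each start were searched on both strands; the letters were spelled out with these class II windows in view, and the motifs do not overlap each other. X followed by Y on one strand with at most 30 bases between them stood in H2-Aa, H2-Eb1 and H2-DMb1 and in neither of the H2-DMa windows. Among all 32851 windows, 10.9% held X, 7.23% held Y, and 24 (0.0731%) held the pair in this order and distance; they belonged to 22 genes, of which 4 were H2 genes (the 3 above and H2-Ob) and 1 was Rfx5, which encodes a factor that binds the X box.

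Libraries held 15021796 to 38301189 counts, of which 2.37 to 50.03% lay on 1 ribosomal RNA locus. Fibroblast genes were abundant in every library: 10 defining genes (collagens, Dcn, Pdgfra and others) summed to 22137 to 74093 counts per 1000000 (CPM, scaled by the trimmed mean of M-values within each Cre line). Smo was lower in all SmoFF than in all wild type libraries (6.81 to 9.05 against 22.6 to 36.3 CPM), Ctnnb1 in all Ctnnb1FF libraries (38.0 to 47.9 against 53.2 to 64.2 CPM) and Gli3 in all Gli3FF libraries (12.3 to 14.4 against 30.8 to 44.9 CPM). Gli2 was at 6.91 and 12.8 CPM in Gli2FF libraries against 12.7 to 20.9 CPM in wild type, which touch; both were lower in all Gli2FFGli3FF libraries (Gli2 1.55 to 6.39 CPM, Gli3 2.83 to 7.63 CPM). Ctnnb1 was as low in Gli3FF libraries (37.7 and 45.6 CPM), and Gli3 in Ctnnb1FF libraries (8.36 to 16.2 CPM), so these levels do not tell Ctnnb1FF and Gli3FF libraries apart. SmoM2 libraries had 248 to 385 CPM of the Hedgehog target Ptch1, against 20.6 to 37.0 CPM in wild type. For wild type replicate 5, SmoFF appears in the description field beside a wild type title; its Smo level lay above all SmoFF libraries, and it was kept as wild type. The replicates are separate mice.

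Class II RNA was present at a low level in every group. The 6 genes other than Ciita, summed, averaged 330 ± 344 CPM in SmoFF (SD, n = 4), 246 ± 98.4 CPM in uninjured Gli1 (n = 3), 221 ± 78.2 CPM in Gli2FFGli3FF (n = 4), 171 ± 107 CPM in SmoM2 (n = 3), 104 ± 0.635 CPM in Gli2FF (n = 2), 93.3 ± 68.5 CPM in Ctnnb1FF (n = 3), 86.5 ± 24.4 CPM in wild type (n = 5), 41.9 ± 10.4 CPM in Gli3FF (n = 2) and 14.6 ± 2.46 CPM in BDL (n = 3). In this order, only wild type and Gli3FF, and Gli3FF and BDL, were neighbours whose libraries did not overlap. Single libraries ran from 11.9 CPM (BDL replicate 1) to 820 CPM (SmoFF replicate 2), and SmoFF alone covered 35.9 to 820 CPM, so that its place in the order rests on replicate 2. Scaling all 29 libraries together put Gli2FFGli3FF (242 CPM) above uninjured (188 CPM) and left the other ranks as they were; the Gli1 and Pdgfra lines were not tested against each other. Per kilobase of exon, wild type and uninjured mice shared the order at the top: in wild type, Cd74 averaged 28.6 ± 13.3, H2-Ab1 13.5 ± 3.31 and H2-Aa 10.1 ± 2.66 CPM per kb (SD, n = 5), and in uninjured mice 84.1 ± 57.6, 43.2 ± 5.53 and 26.1 ± 4.68 CPM per kb (SD, n = 3). SmoFF, SmoM2, Gli2FF, Gli3FF and Gli2FFGli3FF had this order of means as well. BDL and Ctnnb1FF differed (SD, n = 3 each). In BDL, H2-DMb1 (3.59 ± 1.07) stood above Cd74 (2.22 ± 2.07) and H2-Ab1 (1.53 ± 0.537 CPM per kb). In Ctnnb1FF, H2-Aa (12.4 ± 10.1) stood above H2-Ab1 (9.46 ± 15.3 CPM per kb), within their spread. Ciita was the lowest of the 7 per kilobase in wild type and in uninjured mice.

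**Figure D1:**
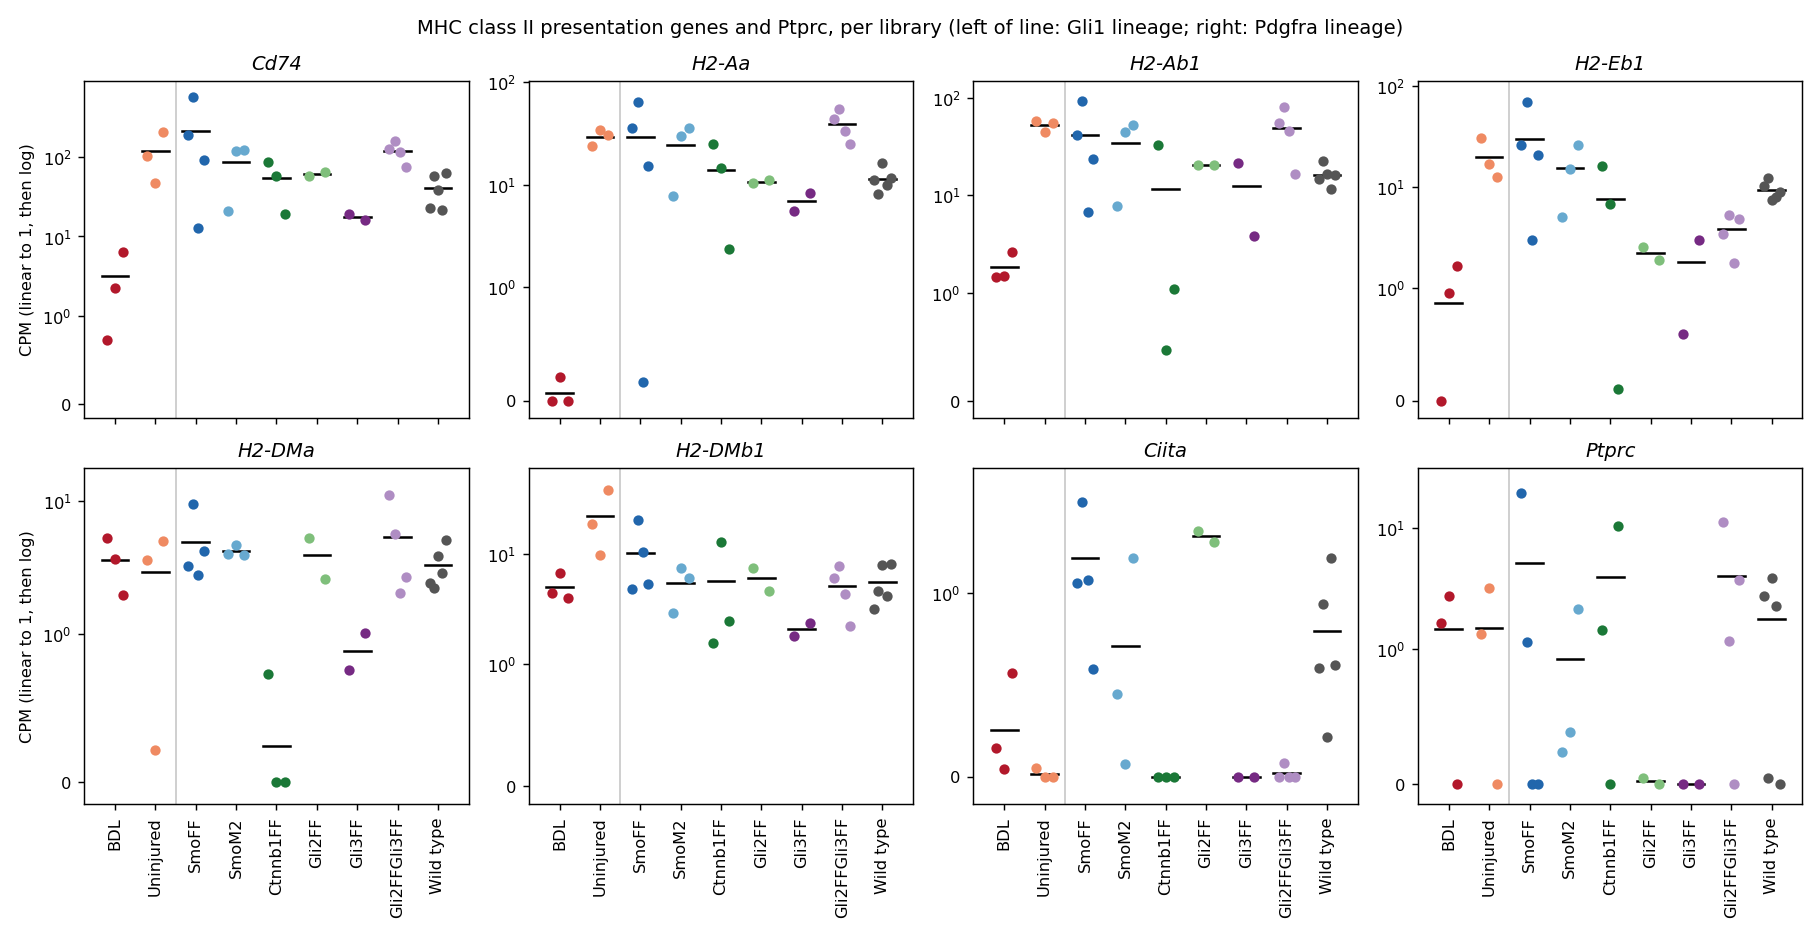
CPM of the 7 class II genes and Ptprc in each library (points) with the group mean (line); the axis is linear up to 1 CPM and logarithmic above. BDL libraries lie below all uninjured libraries for Cd74, H2-Aa, H2-Ab1, H2-Eb1 and H2-DMb1, Ciita is at 0 in the Ctnnb1FF and Gli3FF libraries, and Ptprc does not separate BDL from uninjured.

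The first comparison asked what 4 days of bile duct ligation did to the set in Gli1-lineage cells. Class II transcripts were lower after ligation. Cd74, H2-Aa and H2-Ab1 fell, and 3 of the 6 members tested passed the threshold (edgeR quasi-likelihood test, Benjamini-Hochberg adjusted p under 0.05 over 17150 genes), none of them higher, where 5.8% of all genes tested were called lower. The median log2 fold change over these 6 members was −4.65, against 0.07 over all genes. In bulk RNA, fewer cells of a kind and less RNA per cell cannot be told apart.

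H2-Ab1, the I-A beta chain, was at 1.46, 1.49 and 2.60 CPM in BDL libraries and at 57.2, 44.7 and 55.1 CPM in uninjured libraries. All BDL values lay far below all uninjured values, and its log2 fold change was −4.81 (SE 0.36, adjusted p = 0.00124). H2-Aa, the I-A alpha chain, was at 0, 0.207 and 0 CPM in BDL libraries and at 23.8, 34.2 and 30.3 CPM in uninjured libraries (−8.59, SE 1.17, adjusted p = 0.00843). Its BDL signal was 5 reads, all in replicate 2, so its fold depends on that library: without it the fitted log2 change was −12.32. Cd74, the invariant chain, was at 0.728, 2.28 and 6.41 CPM in BDL libraries and at 103, 46.8 and 208 CPM in uninjured libraries (−5.23, SE 0.94, adjusted p = 0.0201). The groups did not overlap, but the call was lost without BDL replicate 1 (adjusted p = 0.0543) or replicate 2 (adjusted p = 0.109), and the fold moved to −4.54 without uninjured replicate 3 and to −6.27 without BDL replicate 3.

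H2-Eb1, the I-E beta chain, was at 0, 0.954 and 1.66 CPM in BDL libraries and at 30.2, 16.8 and 12.6 CPM in uninjured libraries, a log2 fold change of −4.49 (SE 1.30) with an adjusted p of 0.0721. H2-DMb1 was at 4.42, 6.76 and 3.96 CPM in BDL libraries and at 18.9, 9.78 and 38.1 CPM in uninjured libraries (−2.14, SE 0.59, adjusted p = 0.0615). For both genes the groups did not overlap and the test was not passed. DESeq2 called both. With so few libraries some genes separate fully by order alone. How many of all genes did so was not counted, in this or any other comparison. H2-DMa, the partner of H2-DMb1, showed no such separation, with 5.25, 3.69 and 1.96 CPM in BDL libraries and 3.60, 0.219 and 4.98 CPM in uninjured libraries (log2 fold change 0.31, 95% interval −1.83 to 2.45). Ciita was too low to test, with 3, 1 and 15 reads in BDL libraries and 1, 0 and 0 reads in uninjured libraries: the coactivator was close to undetected in the uninjured group, whose class II level was among the highest.

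**Figure D2:**
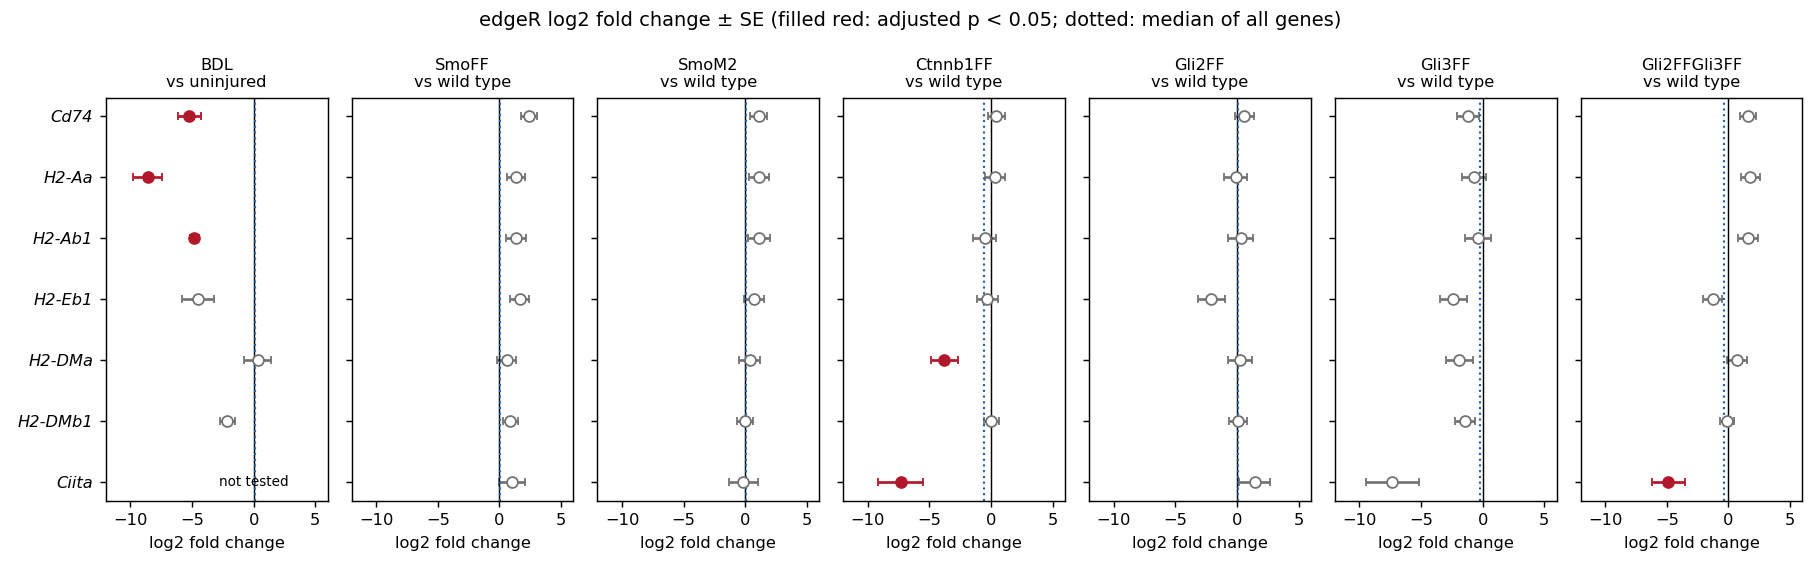
Log2 fold change with its standard error for each class II gene in the 7 comparisons; filled red points have an adjusted p under 0.05 and the dotted line is the median of all genes tested. The calls are Cd74, H2-Aa and H2-Ab1 in BDL, H2-DMa and Ciita in Ctnnb1FF, and Ciita in Gli2FFGli3FF.

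The genes around the class II pathway moved unevenly after ligation. Of 19 genes of interferon-gamma reception and response, 10 fell and 1 rose (all 19 tested; 13.6% of all genes were called in either direction), with a median log2 fold change of −2.04. Ifngr1, the ligand-binding chain of the interferon-gamma receptor, was at 107, 81.1 and 74.2 CPM in BDL libraries and at 333, 415 and 412 CPM in uninjured libraries (−2.15, SE 0.20, adjusted p = 0.00278). The interferon-inducible GTPases Irgm2 (−3.12, SE 0.31, adjusted p = 0.00327) and Iigp1 (−4.10, SE 0.42, adjusted p = 0.00348) fell, as did the immunoproteasome subunit Psmb8 (−2.30, SE 0.26, adjusted p = 0.00453). Jak1, Gbp2, Gbp3, Gbp7, Igtp and Psmb9 were the others that fell, and Ifngr2, the second receptor chain, rose. Irf1, an interferon-induced transcription factor that acts on the Ciita gene, averaged 27.4 ± 6.81 CPM in BDL and 44.4 ± 3.67 CPM in uninjured mice (SD, n = 3 each) and did not pass the test (adjusted p = 0.137).

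Of 8 genes of endosomal processing, 3 fell and 1 rose. In this comparison 5.8% of all genes tested were called lower and 13.6% in either direction. Sppl2a, the membrane protease that clears the last piece of Cd74, averaged 53.1 ± 7.13 CPM in BDL and 112 ± 13.3 CPM in uninjured mice (log2 fold change −1.08, SE 0.18, adjusted p = 0.0167; SD, n = 3 each). The cathepsins Ctsb (−1.05, SE 0.14, adjusted p = 0.0081) and Ctsl (−0.97, SE 0.17, adjusted p = 0.0169) fell, and Lgmn, an asparagine endopeptidase, rose (0.94, SE 0.16, adjusted p = 0.0166). Ctss, the cathepsin that trims Cd74 in professional presenting cells, averaged 8.65 ± 5.14 CPM in BDL and 0.361 ± 0.626 CPM in uninjured mice (SD, n = 3 each; adjusted p = 0.184). None of the 7 genes for the factors that bind the X and Y boxes (the Rfx and Nfy subunits and Creb1) was called by edgeR, and 1, Rfxap, was lower at an unadjusted p under 0.05 (−1.65, SE 0.63). Of 5 tested genes of class II turnover and costimulation, Icosl, a costimulatory ligand, fell (−3.35, SE 0.39, adjusted p = 0.00546).

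**Figure D3:**
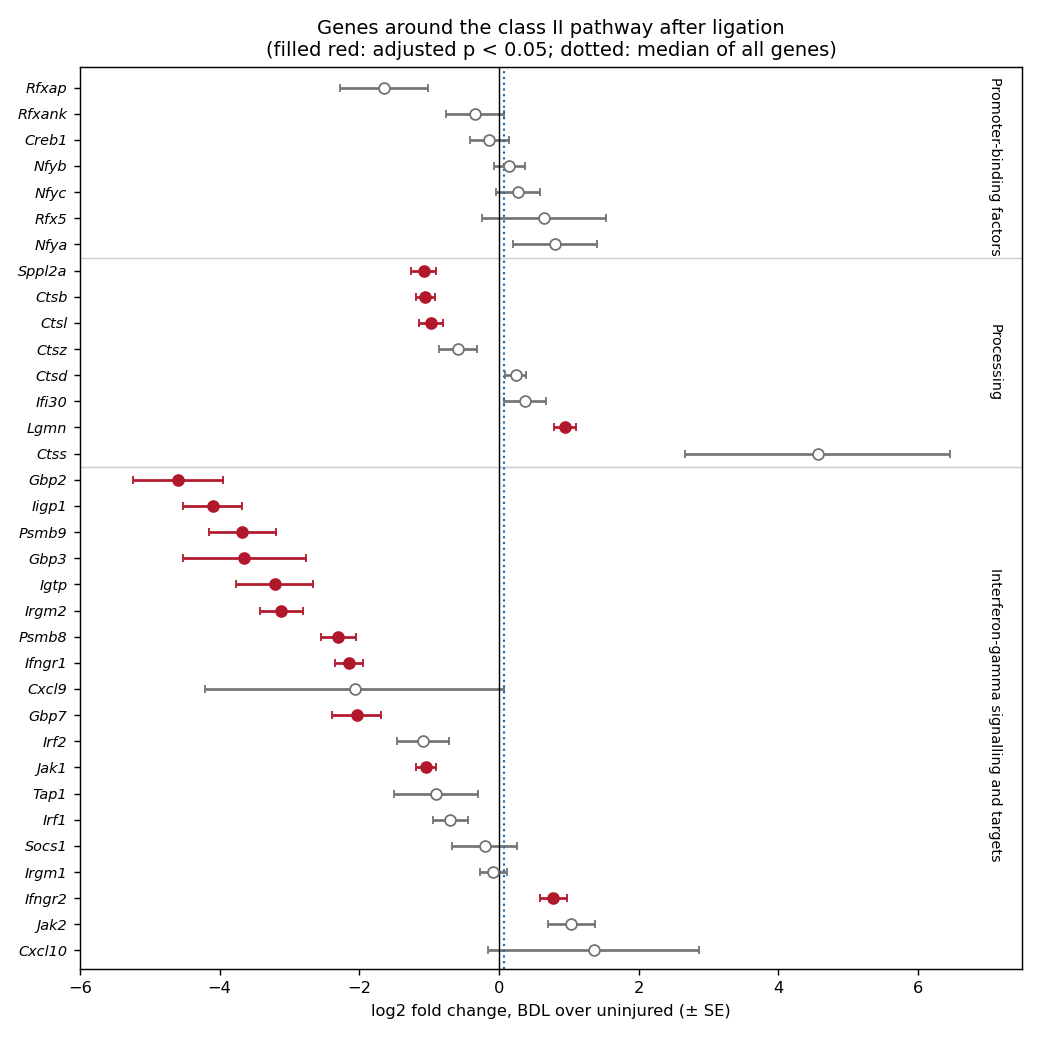
Log2 fold change of BDL over uninjured with its standard error for genes that bind class II promoters, process class II cargo, or receive and respond to interferon-gamma; filled red points have an adjusted p under 0.05. Promoter-binding factors scatter around 0, while 10 of the 19 interferon-gamma genes lie to the left as called genes.

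Ptprc showed no separation between BDL and uninjured mice. It was at 1.66, 2.78 and 0 CPM in BDL libraries and at 1.33, 3.20 and 0 CPM in uninjured libraries, a log2 fold change of −0.03 with a wide 95% interval of −4.00 to 3.93. The 15 pan-leukocyte markers summed to 14.9 to 41.2 CPM in BDL and 10.7 to 35.4 CPM in uninjured mice, with 2 to 8 of them at 0 in a BDL library and 5 to 13 in an uninjured one; of the 9 tested, Fcer1g alone was called, and it was higher (6.71, 13.1 and 1.77 CPM in BDL, 0 in each uninjured library). Macrophage markers summed to 39.0 to 104 CPM in BDL and 16.3 to 124 CPM in uninjured mice. Of the 15, only 6 could be tested, and C1qa and C1qc were called higher, where 13.6% of all genes were called in either direction. Dendritic cell markers summed to 8.96 to 14.8 CPM in BDL and 11.6 to 12.8 CPM in uninjured mice. Of these 12, only 4 could be tested, with Ccr7 and Ccl17 called higher. B cell markers summed to 1.09 to 4.11 CPM in BDL and 1.78 to 35.7 CPM in uninjured mice, and none of the 2 tested was called. With the summed pan-leukocyte markers as a covariate, Cd74, H2-Aa and H2-Ab1 stayed called lower (log2 fold changes −4.71, −9.32 and −4.66; adjusted p = 0.0367, 0.025 and 0.00514).

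Mesothelial markers, genes of the cells that line the peritoneal surface of the duct, did fall with class II. Of 10 measured, 8 were called lower, where 5.8% of all genes tested were. The sum of the 10 was 68.6 to 86.0 CPM in BDL against 357 to 1139 CPM in uninjured mice. Upk3b averaged 2.01 ± 1.93 CPM in BDL and 143 ± 80.3 CPM in uninjured mice (SD, n = 3 each). Its log2 fold change was −6.14 (SE 0.91, adjusted p = 0.0111). Cholangiocyte markers summed to 11.7 to 73.9 CPM in BDL and 40.0 to 597 CPM in uninjured mice with none of 8 called, and endothelial markers to 17.0 to 29.1 CPM in BDL and 122 to 161 CPM in uninjured mice, with Tek called lower and Flt1 and Lyve1 higher. With the summed mesothelial markers as a covariate, a setting added after the data were seen, Cd74 had a log2 fold change of −1.40 (adjusted p = 0.871) and H2-Ab1 of −4.25 (adjusted p = 0.243). That covariate nearly coincides with the groups, and its fit called 0 of the 17150 genes, so mesothelial content and ligation cannot be told apart here. The sum of the fibroblast genes was 70056 to 74093 CPM in BDL and 41932 to 51289 CPM in uninjured mice.

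The remaining comparisons set each allele against wild type in Pdgfra-lineage cells, in 1 fit of 23 libraries over 24383 genes. They share the 5 wild type libraries, so a shift in those would enter all of them. The I-A chains and Cd74 passed the test in none of the 6. In Gli2FFGli3FF, Cd74 was at 125, 159, 117 and 74.6 CPM, against 22.8, 57.6, 38.3, 21.7 and 62.1 CPM in wild type. All 4 values lay above all 5 wild type values, with a log2 fold change of 1.56 (95% interval 0.30 to 2.81) and an adjusted p of 0.0933. H2-Aa was at 43.5, 54.7, 33.2 and 24.7 CPM in Gli2FFGli3FF and at 11.1, 8.09, 16.1, 9.81 and 11.7 CPM in wild type, again without overlap (1.78, SE 0.75, adjusted p = 0.0983). H2-Ab1 was at 54.5, 80.3, 45.1 and 16.5 CPM in Gli2FFGli3FF against 11.7 to 22.6 CPM in wild type (1.59, SE 0.82, adjusted p = 0.171). Macrophage markers summed to 629, 132, 88.7 and 231 CPM in Gli2FFGli3FF, against 26.8 to 145 CPM in wild type. Replicate 2, the highest of the group in Cd74, H2-Aa and H2-Ab1, had 132 CPM, within the wild type range. Of the 15 macrophage markers tested, 2 were called higher (Marco and Cd14) and 0 lower, where 17.2% of all genes were called in either direction. Pan-leukocyte markers summed to 162, 7.26, 3.50 and 51.6 CPM in Gli2FFGli3FF against 3.14 to 32.5 CPM in wild type, and Ptprc was at 11.2, 1.17, 0 and 3.71 CPM in Gli2FFGli3FF against 2.75, 0.0428, 3.89, 2.26 and 0 CPM in wild type. With the pan-leukocyte sum as a covariate Cd74 had a log2 fold change of 1.70 (adjusted p = 0.0838) and H2-Aa of 1.76 (adjusted p = 0.112); the part of the macrophage markers was not tested. The median over all genes in this comparison was −0.35, and 17.2% of genes were called in either direction. A fit of these 9 libraries alone called Cd74, H2-Aa and H2-Ab1 higher and H2-Eb1 lower, beside Ciita. In that fit 4559 of the 16635 genes tested were called in either direction.

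SmoFF libraries varied widely. Cd74 was at 191, 564, 12.6 and 92.0 CPM in SmoFF, which spans the wild type range (21.7 to 62.1 CPM) on both sides; its log2 fold change was 2.41 (SE 0.65, adjusted p = 0.0631), and it was called without SmoFF replicate 3 (2.82, adjusted p = 0.0175) and by DESeq2. Without SmoFF replicate 2 it was 1.28 (adjusted p = 0.318). Replicate 2 was the highest SmoFF library for all 7 genes, and replicate 3 had 4 reads of H2-Aa beside 169 of H2-Ab1. None of the 7 was called by edgeR (1.55% of all genes were called in either direction), and 2 were higher at an unadjusted p under 0.05. In SmoM2, Cd74 was at 20.8, 117 and 121 CPM (log2 fold change 1.10, 95% interval −0.24 to 2.43); none of the 7 was called by edgeR, none had an unadjusted p under 0.05, DESeq2 called none, and 0.205% of all genes were called. The intervals of both comparisons hold changes of more than 4-fold for Cd74, so no likeness to wild type is shown.

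In Gli2FF, Cd74 (57.9 and 64.5 CPM), H2-Aa (10.3 and 11.0 CPM) and H2-Ab1 (20.4 and 20.3 CPM) lay within the wild type ranges or just above them; edgeR called 0 of 7, with none at an unadjusted p under 0.05, and DESeq2 also called 0, beside 5.84% of all genes by edgeR. In Gli3FF, Cd74 (19.3 and 16.1 CPM), H2-DMa (0.756 and 1.02 CPM) and H2-DMb1 (1.79 and 2.38 CPM) lay below all wild type libraries without passing the test (log2 fold changes −1.19, −1.89 and −1.42; adjusted p = 0.46, 0.364 and 0.339). With 2 against 5 libraries, order alone separates the groups fully at a rate of 0.0952. Again edgeR called 0 of 7, with 2 lower at an unadjusted p under 0.05, against 4.45% of all genes. DESeq2 called 1, Ciita. In Ctnnb1FF the I-A chains diverged within libraries: replicate 2 had 12 reads of H2-Ab1 beside 367 of H2-Aa, and replicates 1 and 3 had 586 beside 449 and 22 beside 47. H2-Ab1 was at 32.8, 0.47 and 1.10 CPM in Ctnnb1FF against 11.7 to 22.6 CPM in wild type (−0.51, adjusted p = 0.707), and without replicate 1 it was called lower (−4.26, adjusted p = 0.00587).

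Ciita, the coactivator, had few or no reads in 3 of the genotypes. No read of it was counted in any of the 3 Ctnnb1FF or the 2 Gli3FF libraries, and in Gli2FFGli3FF the reads were 0, 2, 0 and 0, against 16, 22, 5, 60 and 18 in wild type (0.594, 0.942, 0.214, 1.62 and 0.608 CPM). With reads pooled over libraries and a floor of 3 reads over the group, Ciita was at least 18.2-fold lower in Ctnnb1FF than in wild type. For Gli3FF this bound was 15.4-fold. Both bounds cover counting error only, not the spread between mice. On the log2 scale they are −4.19 and −3.95, while the 95% edgeR intervals reached −3.76 in Ctnnb1FF and −3.15 in Gli3FF, smaller changes. In Gli2FFGli3FF, Ciita was 32.3-fold lower (95% exact interval 8.76 to 270, counting error only, since PCR copies are not separate molecules). That interval holds both bounds, so no order among the 3 genotypes is shown. It was called in Ctnnb1FF (adjusted p = 0.00774) and in Gli2FFGli3FF (adjusted p = 0.0193) and not in Gli3FF (adjusted p = 0.0561). Members called lower were 2 of 7 in Ctnnb1FF (Ciita and H2-DMa), where 11.9% of all genes were called lower and 19.9% in either direction, and 1 of 7 in Gli2FFGli3FF, where 9.56% were. The Gli2FFGli3FF call was lost without replicate 1, 3 or 4 of that group (adjusted p = 0.0502 to 0.0585), and without replicate 2, which held both reads, the group is at 0. With the summed mesothelial markers as a covariate, the Ctnnb1FF call was lost (log2 fold change −6.16, adjusted p = 0.0592). Gli2FF had 50 and 61 reads, 2.37 and 2.02 CPM, both above all wild type libraries (log2 fold change 1.46, SE 1.26, adjusted p = 0.586). Cd74 and the I-A chains were thus well detected in Gli2FFGli3FF libraries in which Ciita was not, as in the uninjured Gli1 libraries. Fewer genes had at least 1 count in these groups than in wild type, apart from 1 Gli3FF library: 15892 to 17726 in Ctnnb1FF, 17544 and 22143 in Gli3FF and 17508 to 20055 in Gli2FFGli3FF, against 21127 to 24483 in wild type. Gli2FF libraries had 25279 and 28028, and SmoFF libraries 20583 to 22957 with 15 to 120 reads of Ciita. In the Gli1 line there were 23482 to 24964 in BDL and 17121 to 20753 in uninjured libraries. The part of this breadth of detection in the Ciita differences was not tested.

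H2-DMa was the second call in Ctnnb1FF. It was at 0.728, 0 and 0 CPM in Ctnnb1FF and at 2.41, 2.23, 3.85, 2.88 and 5.07 CPM in wild type (log2 fold change −3.78, SE 1.07, adjusted p = 0.0161), where the median over all genes was −0.61. The groups did not overlap; the call was lost without Ctnnb1FF replicate 2 (adjusted p = 0.0584) or 3 (adjusted p = 0.0538) and in a fit of the 8 libraries alone (adjusted p = 0.092), and without replicate 1 the remaining libraries are at 0. The mesothelial covariate also ended this call (−2.55, adjusted p = 0.0877). H2-DMb1, its partner, was at 1.57, 13.0 and 2.45 CPM in Ctnnb1FF against 3.15 to 8.14 CPM in wild type (log2 fold change 0.03, 95% interval −1.22 to 1.27).

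H2-Eb1 lay below all wild type libraries in the 3 groups with a Gli2 or Gli3 allele, a contrast noticed after the values were seen. It was at 3.44, 5.29, 1.78 and 4.85 CPM in Gli2FFGli3FF, at 2.56 and 1.89 CPM in Gli2FF and at 0.596 and 3.01 CPM in Gli3FF, all below the wild type values of 10.3, 12.4, 7.44, 8.0 and 8.99 CPM, while H2-Aa in Gli2FFGli3FF lay above all wild type values. None of these passed the test across all genes (log2 fold changes −1.29, −2.08 and −2.38; adjusted p = 0.253, 0.3 and 0.255). In Gli3FF, Cd74, H2-DMa and H2-DMb1 also lay below all wild type libraries. The ratio of H2-Eb1 to H2-Aa reads, with 0.5 added to each, was 0.0545 to 0.197 in Gli2FFGli3FF against 0.462 to 1.53 in wild type. It was 0.172 to 0.249 in Gli2FF and 0.11 to 0.369 in Gli3FF. A low ratio was not confined to these groups: Ctnnb1FF replicate 3 had 0.0526, from 2 reads of H2-Eb1 and 47 of H2-Aa. Ctnnb1FF replicates 1 and 2 had 0.635 and 0.472. In 2-sided exact permutation tests of the log2 ratio, each genotype against wild type, p was 0.0159 for Gli2FFGli3FF (0.0952 adjusted over 6 genotypes) and 0.0952 for Gli2FF and for Gli3FF (0.161 adjusted), in each case the smallest p that the group sizes allow. Full separation fixes p at that value, and the ratio was chosen after the separation was seen. These p values thus restate the separation, and the adjustment does not cover the choice of ratio. The ratio of H2-Ab1 to H2-Aa overlapped wild type in all 6 genotypes.

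The same libraries differed in reads of other MHC genes. H2-DMb2, a near-identical copy of H2-DMb1 between which reads can be split, took 11.4 to 31.7% of the reads of both in Gli2FFGli3FF, 16.8 and 31.7% in Gli2FF and 30.8 and 38.7% in Gli3FF, against 0.926 to 2.12% in wild type. SmoM2 replicate 2 had 11.25% (95% Wilson interval 7.85 to 15.9%), and no other SmoFF, SmoM2 or Ctnnb1FF library exceeded 2.79%. In the Gli1 line BDL replicate 1 had 9.57%, and the other 5 libraries at most 1.03%. H2-DMb2 rose in Gli2FFGli3FF (1.80 ± 1.04 CPM, SD, n = 4, against 0.0948 ± 0.0690 CPM in wild type, n = 5; log2 fold change 4.18, SE 1.26, adjusted p = 0.0256). H2-Ea, the I-E alpha chain, was counted only in Gli2FF (14 and 7 reads) and Gli2FFGli3FF replicate 3 (6 reads), and in no other of the 29 libraries. Class II genes are among the most variable between mouse strains, H2-Ea is not transcribed in some of them, and reads were counted on a single reference; the strain of these mice is not given in the sources used here, and its part in these values was not tested.

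**Figure D4:**
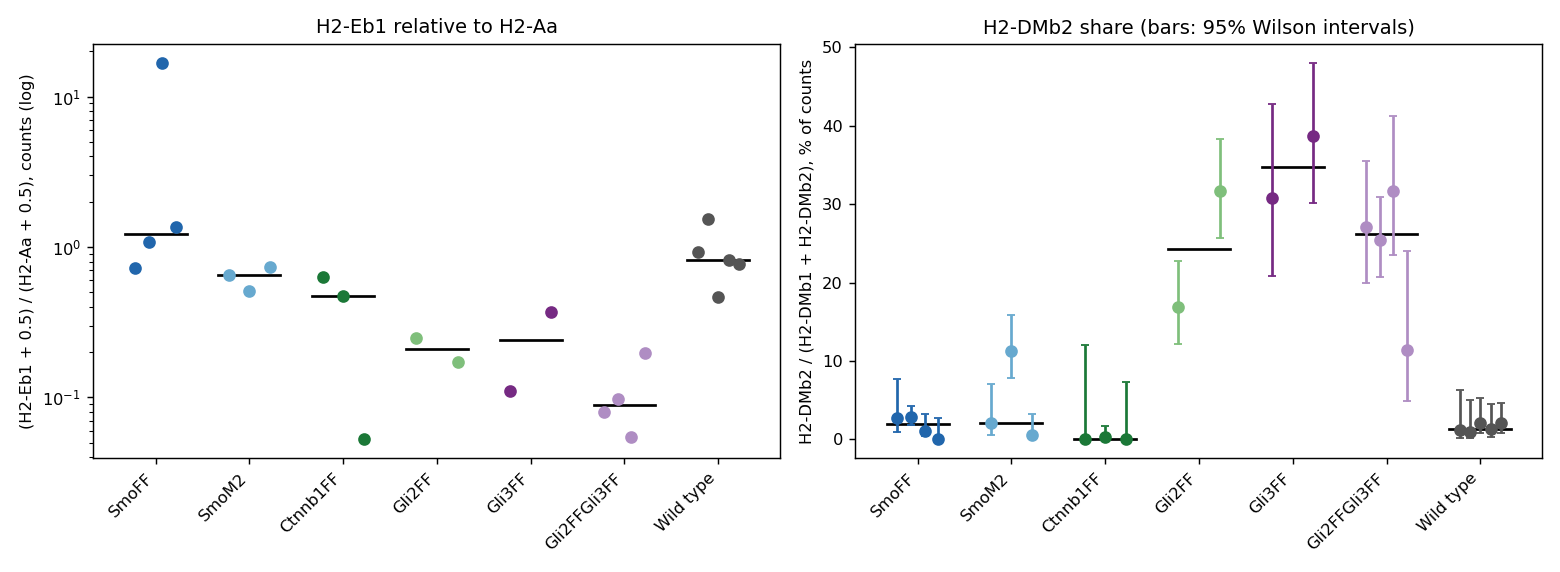
Ratio of H2-Eb1 to H2-Aa reads (left, logarithmic axis) and share of H2-DMb2 in the reads of H2-DMb1 and H2-DMb2 (right, with 95% Wilson intervals, counting error only) per Pdgfra-lineage library; lines are group medians. Gli2FF, Gli3FF and Gli2FFGli3FF libraries lie below all wild type libraries on the left and above them on the right.

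Class II RNA was also measured in libraries without any read of Ptprc. Ptprc had 0 reads in 10 of the 29 libraries, and the summed class II level was 16.6 to 349 CPM in those (median 99.0), against 11.9 to 820 CPM (median 126) in the 19 others. None of these 10 was without leukocyte marker reads: the pan-leukocyte markers summed to 1.67 to 14.9 CPM in them, and the macrophage markers to 124 CPM in uninjured replicate 3, the highest of the 10 in class II. Over the 23 Pdgfra-lineage libraries, log2(CPM + 1) of Cd74 and of Ptprc had a Pearson r of 0.19 (permutation p = 0.385, adjusted 0.608) and a Spearman rho of 0.27 (permutation p = 0.214, adjusted 0.408), with r at −0.05 without SmoFF replicate 1 and Gli2FFGli3FF replicate 1, the libraries farthest from the median of Ptprc. Adjustment was over 42 relations, 6 members with 7 marker measures. For the 6 members, Spearman rho with Ptprc was −0.14 to 0.37 and none passed the adjusted threshold; likewise none passed with the summed pan-leukocyte (−0.18 to 0.36) or macrophage markers (−0.24 to 0.44). SmoFF replicate 1 had the most Ptprc, 19.6 CPM, and a Cd74 level of 191 CPM, while SmoFF replicate 2, with 564 CPM of Cd74, had 1.15 CPM of Ptprc.

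Class II levels correlated with mesothelial markers. Cd74 had a Pearson r of 0.65 (permutation p = 0.00089, adjusted 0.00748) and a Spearman rho of 0.59 (permutation p = 0.00297, adjusted 0.0249) with their sum over the 23 libraries, r was 0.56 without Ctnnb1FF replicate 3 and Gli3FF replicate 2, and r was 0.72 between deviations from group means. That r was 0.56 for H2-Aa, 0.78 for H2-Ab1, 0.66 for H2-Eb1, 0.59 for H2-DMa and 0.29 for H2-DMb1. H2-Ab1, H2-DMa and H2-DMb1 also passed by Spearman rho (0.55, 0.76 and 0.63; adjusted permutation p = 0.0491, 0.00084 and 0.0172), H2-Eb1 by Pearson r alone (0.66, adjusted permutation p = 0.00651) and H2-Aa by neither. With cholangiocyte markers, H2-Eb1 alone passed by Spearman rho (0.85, permutation p = 1e-05, the smallest that 100000 resamples can give, adjusted 0.00042). By Pearson r, H2-Eb1 and H2-DMa passed with them (0.83 and 0.59, adjusted permutation p = 0.00021 and 0.0194). Between deviations from group means, r with cholangiocyte markers was 0.64 for Cd74, 0.63 for H2-Aa and 0.67 for H2-Ab1. It was 0.76 for H2-Eb1, 0.51 for H2-DMa and −0.07 for H2-DMb1, so a relation within groups was not particular to mesothelial markers. With endothelial markers the r between deviations was negative for all 6 members, from −0.61 for H2-DMa to −0.35 for H2-Ab1. Over the libraries themselves none passed with endothelial markers by Spearman rho (−0.20 to 0.27). H2-DMa and H2-DMb1 passed with dendritic cell markers (0.55 and 0.67; adjusted permutation p = 0.0491 and 0.00868), but between deviations from group means rho was −0.01 and 0.59, and that sum was mostly Zbtb46 and Batf3, with Cd209a and Ccl22 at 0 in all 23 libraries. The mesothelial marker sum was 597 to 1272 CPM in SmoFF, 240 to 728 CPM in SmoM2 and 42.8 to 174 CPM in Ctnnb1FF. It was 303 and 411 CPM in Gli2FF, 40.7 and 62.9 CPM in Gli3FF, 210 to 403 CPM in Gli2FFGli3FF and 178 to 430 CPM in wild type. The SmoFF, Ctnnb1FF and Gli3FF ranges do not overlap that of wild type. With the sum as a covariate, Cd74 had a log2 fold change of −0.08 in SmoFF, and it was called higher in Gli2FFGli3FF (1.46, adjusted p = 0.0338) and in Ctnnb1FF (2.79, adjusted p = 0.0112). The genes called in SmoFF numbered 25 with the covariate against 377 without it. They numbered 3316 against 4852 in Ctnnb1FF and 530 against 1085 in Gli3FF. Because the marker sums of these 3 groups stand outside the wild type range, mesothelial content and genotype cannot be told apart in them. The 6 Gli1 libraries fall into 2 separate clusters, so no relation was tested in them.

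**Figure D5:**
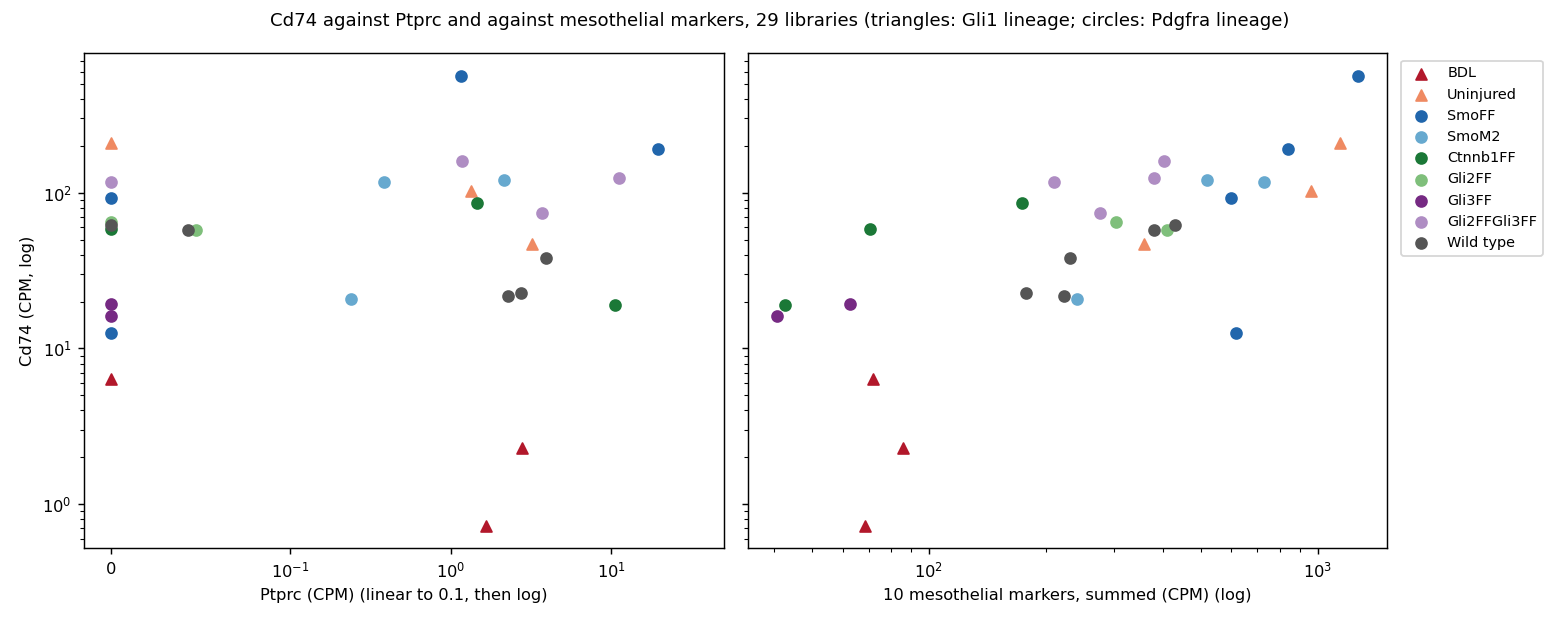
Cd74 against Ptprc (left) and against the sum of 10 mesothelial markers (right) in all 29 libraries, in CPM on logarithmic axes (Ptprc linear up to 0.1). Libraries without Ptprc reads span Cd74 levels of 6.41 to 208 CPM, and over the 23 Pdgfra-lineage libraries Cd74 and the mesothelial sum have a Pearson r of 0.65.

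The 6 genes whose levels were most like the summed class II level over the 23 Pdgfra-lineage libraries, among 8776 genes averaging 3 or more on the log2 CPM scale, were Stk26 (Spearman rho 0.83), Gpm6a (0.81), Nkain4 (0.79), Slpi (0.78), Sdc4 (0.78) and F11r (0.77). They share the libraries and their makeup with the class II genes, and the values are a description. Gpm6a is also 1 of the 10 mesothelial markers, Slpi encodes a secreted protease inhibitor of epithelia, and F11r a tight junction protein. In the Gli1 line, which was not used to choose them, Gpm6a was at 0, 0.663 and 0.98 CPM in BDL libraries and at 185, 40.4 and 158 CPM in uninjured libraries (log2 fold change −7.79, SE 1.09, adjusted p = 0.00903). Nkain4 (−3.47, SE 0.45, adjusted p = 0.00749), Slpi (−4.21, SE 0.80, adjusted p = 0.0224) and F11r (−3.57, SE 0.85, adjusted p = 0.0384) fell too; Sdc4 (−0.78, adjusted p = 0.0536) and Stk26 (0.27, adjusted p = 0.946) did not pass.

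Calls among the 19 interferon-gamma genes went in both directions in the genotypes. In Gli2FFGli3FF 2 of 19 rose (Jak2 and Gbp2) and 4 fell, where 17.2% of all genes were called. Jak2, a kinase of the receptor, averaged 82.0 ± 20.8 CPM in Gli2FFGli3FF (SD, n = 4) and 17.3 ± 3.33 CPM in wild type (n = 5), a log2 fold change of 2.25 (SE 0.26, adjusted p = 2.9e-06), while Irf1 (−0.95, SE 0.20, adjusted p = 0.00169), Ifngr1 (−0.97, SE 0.22, adjusted p = 0.00354) and the feedback inhibitor Socs1 (−1.90, SE 0.46, adjusted p = 0.00642) fell. In Ctnnb1FF 1 rose (Cxcl10) and 3 fell, among them Irf1 (−0.83, SE 0.22, adjusted p = 0.00892), where 19.9% of all genes were called. In Gli2FF 1 rose (Jak2) and 2 fell, beside 5.84% of all genes, and in Gli3FF 1 rose (Jak2) and 2 fell, beside 4.45%. The Ctnnb1FF share was near that background. In SmoFF and SmoM2 edgeR called 0 of 19, with 3 and 2 at an unadjusted p under 0.05. Of the 7 promoter-binding factors, Creb1 alone was called, and it was higher in Ctnnb1FF (0.87, SE 0.22, adjusted p = 0.00681) and in Gli2FFGli3FF (0.86, SE 0.20, adjusted p = 0.00488), 1 of 7 in each, beside the same 19.9% and 17.2% of all genes.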

How the data were processed

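Per the labels' protocols, common bile ducts of single mice were digested with dispase, pronase and collagenase IV, mesenchymal cells were flow sorted, and full-length cDNA libraries were made by a Smartseq3 protocol without molecular identifiers in the deposited values. The authors deposited raw counts per gene, 1 column per library; the build is mm10 per the submitters' processing notes, while the sources used here name no aligner, counter, annotation or strand setting, so overlapping genes may share reads. All 29 columns were used. The tests ran in R 4.3.3 with edgeR 4.0.16 on raw counts (filterByExpr, trimmed mean of M-values scaling, quasi-likelihood F test, Benjamini-Hochberg adjustment over all genes tested), with the 6 Gli1 and the 23 Pdgfra libraries in separate fits; the SE is the log2 fold change over the square root of F, and intervals are 95%. In a single run of simulated counts per comparison, 100 genes were changed 4-fold, 100 were changed 2-fold and the rest left unchanged. For BDL (15918 genes) 17% of 4-fold and 0% of 2-fold changes were recovered, and for Gli2FFGli3FF (22756 genes) 39% and 8%, with 0 false calls. In the data 2326 and 4183 genes were called, and recovery depends on the share of genes changed. These percentages therefore need not hold for the tests reported here. Depth was 15021796 to 38301189 counts, and counting intervals cover counting error only. The members and gene lists were chosen with earlier results of these data known; 1 gene of the interferon-gamma list is not reported here. Text names all members, up to 4 called genes per list with the smallest p, Irf1, Ptprc, and the 6 genes most alike; Ctss, Rfxap, H2-Ea, H2-DMb2 and the read ratios were chosen after their values were seen. Positions are from GENCODE M21 and promoters from RefSeq. Correlations and ratios used Python 3.11.15 with scipy 1.17.1. Alternatives were DESeq2 1.42.0, limma 3.58.1 (voom), other scalings and filters, other control libraries, the ribosomal locus left out, leukocyte and mesothelial covariates, a replicate block and each library left out.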

Additional observations from a re-analysis of the deposited data

Results flagged for a closer look

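In a search of 24 groups of 4 or 5 libraries for a highest or lowest library far from the rest, 2 met the criterion, where chance gives about 1 in 20. Ptprc was at 19.6 CPM in SmoFF replicate 1, against 1.15 CPM in the next highest SmoFF library. Ciita was at 0.0756 CPM in Gli2FFGli3FF replicate 2 (2 reads), with 0 in the other 3 libraries of that group; with 3 libraries at 0 any read meets the criterion, so it says nothing about chance.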

How the results depend on the processing

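Over 48 member comparisons and 930 alternative values, 885 stayed on the same side of the threshold (69 of them with the other sign and neither value past it), 30 newly passed it (12 with no filter on low counts, 6 with only the 2 groups compared), 14 no longer passed and 1 reversed: H2-Ab1 in Gli3FF was at 3.68 with the mesothelial covariate (adjusted p = 0.0499). For BDL, 3 members were called, 5 with DESeq2, 0 with the mesothelial covariate (added after the data were seen) and 2 to 4 without 1 library; all genes called were 2326, and 428 with the replicate block. For SmoFF the count was 0, 4 with no filter, 1 with DESeq2 and 0 to 1 without 1 library. For SmoM2 it was 0, and 1 with no filter. For Ctnnb1FF it was 2, 1 with the mesothelial covariate (Cd74, neither of the 2), 1 with only the 2 groups compared and 1 to 3 without 1 library. For Gli2FF it was 0, 1 with no filter and 1 with only the 2 groups compared. For Gli3FF it was 0, 2 with no filter, and 1 each with the mesothelial covariate, DESeq2, limma voom and only the 2 groups compared. For Gli2FFGli3FF it was 1, and 5 with only the 2 groups compared, where 4559 of 16635 genes were called. It was 4 with no filter, 2 with the mesothelial covariate and 0 to 1 without 1 library. The causes were not tested. The median of all genes moved by 0.31 in BDL with no filter and by 0.19 with limma voom, in Ctnnb1FF by 0.36 with only the 2 groups compared, and in Gli3FF by −0.54 without replicate 2. Scaling over all 29 libraries gave a class II sum of 110 CPM in Gli2FF and 11.5 CPM in BDL. Libraries with the same replicate number shared little deviation from their group means (correlations −0.26 to 0.17). This cannot show whether such mice were paired. With the replicate block the members called stayed at 3 in BDL, 2 in Ctnnb1FF, 1 in Gli2FFGli3FF and 0 in the others. Depth limits genes at a few reads a library, such as Ciita and H2-Ea.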
